A study of Mus musculus with 170 samples.

Results

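Collagen chain genes encode the alpha chains of the collagens, and 28 of them were measurable in lungs and hearts of mice exposed to biomass smoke particles. The count table held 44 symbols of the form Col, a type number, the letter a and a chain number, out of 21450 symbols in all, measured by 79 of its 30146 probes. Counts were summed over the probes of a symbol, and a chain was kept where its mean was at least 1 CPM (its counts scaled to the library's total) in lung or in heart. This left 28 chains with 58 probes, 27 of them at the minimum in lung, 22 in heart and 21 in both tissues, and a minimum of 5 CPM would have left 26. The chains nearest the minimum, by the higher tissue mean, were Col16a1 at 2.85 CPM and Col20a1 at 4.60 CPM in lung on the inner side. On the outer side were Col11a1 at 0.935 CPM in heart and Col7a1 at 0.895 CPM in lung.

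A collagen is a molecule of 3 polypeptide chains wound into a triple helix, so that partner chains of a type are made, hydroxylated, folded and secreted together. Fibrillar collagens form the fibrils that carry tension in heart and lung, type IV collagens form the sheet of the basement membrane under epithelium and around muscle cells and capillaries, and type VI collagens form beaded filaments that join both. In heart and lung most interstitial collagen is made by fibroblasts, while endothelium, epithelium and muscle contribute type IV chains, and more collagen in the heart wall is known as fibrosis.

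By class, 8 of 11 fibrillar symbols were kept (Col1a1, Col1a2, Col3a1, Col5a1, Col5a2, Col5a3, Col11a2 and Col27a1). All 6 type IV chains (Col4a1 to Col4a6) and 4 of 6 type VI chains (Col6a1, Col6a2, Col6a3 and Col6a6) were kept. The others were 2 of 3 short-chain network collagens (Col8a1 and Col8a2), 4 of 9 fibril-associated chains, known as FACITs (Col12a1, Col14a1, Col16a1 and Col20a1), both multiplexins (Col15a1 and Col18a1) and 2 of 4 transmembrane collagens (Col13a1 and Col23a1). The other 3 symbols, Col7a1 of anchoring fibrils, Col26a1 and Col28a1, were under the minimum.

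The mice were female and of the outbred CD-1 stock. The 10 smoke groups received particulate matter (PM) from smoke into the airway by oropharyngeal aspiration, at 2 mg/mL in 50 µL of saline, from 5 fuels (RedOak, Peat, PineNeedles, Pine and Eucalyptus), each burned in a flaming phase (Flame) or a smoldering phase (Smolder), 1 group received lipopolysaccharide (LPS, a bacterial inflammatory agent, at a dose not given in the sources used here) and 1 received saline. Lungs were taken at 4 h and 24 h from 6 mice per smoke and saline group and 4 mice per LPS group. Hearts were taken at 24 h from 6 mice each of RedOakFlame, PeatSmolder, PeatFlame, RedOakSmolder and saline, and their lungs were measured as well.

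The 170 libraries, 140 of lung and 30 of heart, held 4426180 to 8046021 counts each. Genes with at least 1 count numbered 13187 to 14329 in hearts and 9886 to 15644 in lungs, and 6 lung libraries, all at 24 h, were under 13000. Markers of heart muscle summed to 33538 to 50932 CPM in hearts and 57.9 to 1383 CPM in lungs, and markers of alveolar epithelium to 8.60 to 49.2 CPM in hearts and 2217 to 27412 CPM in lungs. In such bulk tissue, fewer cells of a type and less RNA per cell cannot be told apart. Levels below are CPM scaled by TMM factors over all libraries, and differences are log2 changes with their standard error from edgeR's quasi-likelihood test, called at an adjusted p (Benjamini-Hochberg over all genes tested in the tissue) below 0.05.

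The clearest collagen differences between smoke and saline were in the heart. In RedOakFlame hearts 14 of the 21 chains tested were higher than in saline hearts and none was lower, against 5.31% of all 11179 genes tested called higher. In PeatSmolder hearts 9 of 21 were higher and none was lower, against 2.4% of all genes called higher. The median log2 change of the 21 chains was 1.14 in RedOakFlame hearts and 0.95 in PeatSmolder hearts, where the median of all genes was 0.03 and 0.00. No chain was called in PeatFlame hearts (0.0447% of all genes were) or in RedOakSmolder hearts (0% of all genes were), by edgeR or by DESeq2. At an unadjusted p below 0.05 there were 11 of 21 chains in PeatFlame hearts (52.4%, against 11.7% of all genes) and 1 in RedOakSmolder hearts (4.76%, against 6.26% of all genes), with medians of 0.58 and 0.32. All 21 chains lay above saline in each of the 4 smokes in this fit, and these comparisons share the 6 saline hearts. Over the alternative fits some chains changed sign in RedOakSmolder hearts, such as Col18a1 (-0.34 to 0.59) and Col15a1 (-0.26 to 0.37). Col3a1, Col4a1 and Col4a2 stayed above saline there.

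**Figure D1:**
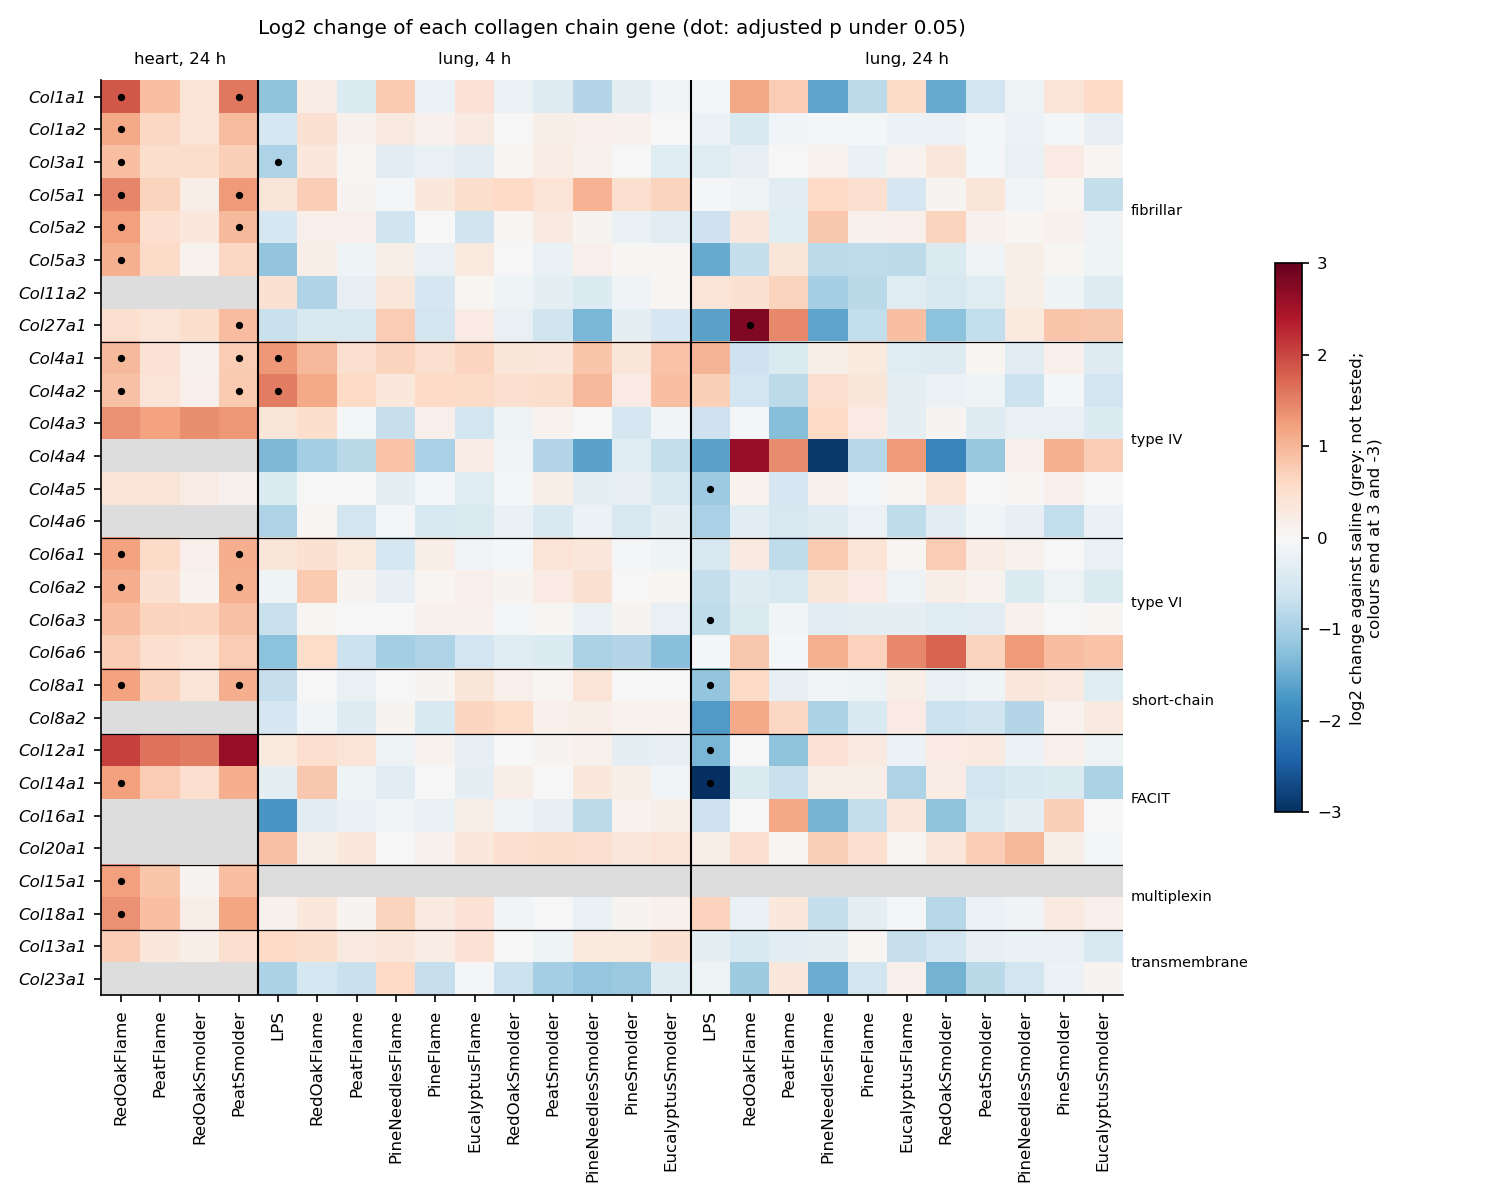
Log2 change of each collagen chain (rows, by class) against saline for each smoke and LPS (columns) in heart at 24 h and lung at 4 h and 24 h. Red is higher, blue lower, grey not tested, colours end at 3 and -3, and a dot marks an adjusted p below 0.05; dots fill 14 cells of the RedOakFlame and 9 of the PeatSmolder heart column, 3 and 5 cells of the LPS lung columns, and the Col27a1 cell of RedOakFlame lungs at 24 h.

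Among the fibrillar chains, 6 of 7 rose in RedOakFlame hearts and 4 of 7 in PeatSmolder hearts. The clearest was Col5a1, a chain of type V collagen, which is known for starting and limiting fibril growth. Col5a1 had 91.7 CPM in the lowest, a median of 120.7 and 169 CPM in the highest of the RedOakFlame hearts, and 65.2, 123.5 and 147 CPM in the PeatSmolder hearts, against 28.7, 46.1 and 61.6 CPM in the saline hearts. PeatFlame hearts had 44.5, 78.4 and 91.6 CPM and RedOakSmolder hearts 37.5, 49.4 and 79.2 CPM. Every RedOakFlame and every PeatSmolder heart lay above every saline heart, while PeatFlame and RedOakSmolder hearts overlapped them. The mean was 127.4 ± 33.1 CPM in RedOakFlame hearts and 46 ± 11 CPM in saline hearts (SD, n = 6 each). The log2 change of Col5a1 was 1.47 ± 0.24 in RedOakFlame hearts (adjusted p = 0.00058) and 1.27 ± 0.24 in PeatSmolder hearts (adjusted p = 0.00468), against 0.66 in PeatFlame hearts (adjusted p = 0.328) and 0.20 in RedOakSmolder hearts (adjusted p = 0.959).

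Its partner Col5a2 had 93.4, 119.3 and 171 CPM (lowest, median and highest) in RedOakFlame hearts and 74.6, 102.4 and 148 CPM in PeatSmolder hearts, against 43.3, 52.5 and 62.7 CPM in saline hearts, again with no overlap. Its log2 change was 1.24 ± 0.25 in RedOakFlame hearts (adjusted p = 0.00324) and 0.98 ± 0.25 in PeatSmolder hearts (adjusted p = 0.0275). Col5a3, another type V chain, had 10.5, 14.2 and 22.2 CPM in RedOakFlame hearts, against 2.89, 7.12 and 11.4 CPM in saline hearts. The highest saline heart overlapped the lowest RedOakFlame heart, and Col5a3 rose by 1.07 ± 0.29 (adjusted p = 0.0169); in PeatSmolder hearts its log2 change was 0.62 (adjusted p = 0.223).

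Type I collagen, the main fibril collagen, is built from Col1a1 and Col1a2. Col1a1 had 340.3, 429 and 860.0 CPM in RedOakFlame hearts, 170.4, 426 and 664 CPM in PeatSmolder hearts, 130.7, 283 and 409 CPM in PeatFlame hearts and 83.7, 133.8 and 319 CPM in RedOakSmolder hearts, against 85.6, 115.4 and 222 CPM in saline hearts. Every RedOakFlame heart exceeded every saline heart, and the other 3 smokes overlapped saline. The log2 change of Col1a1, 1.87 ± 0.41 in RedOakFlame hearts (adjusted p = 0.00561) and 1.57 ± 0.40 in PeatSmolder hearts (adjusted p = 0.0297), was the largest among the chains called in RedOakFlame hearts. Col1a2 had 244, 341 and 685 CPM in RedOakFlame hearts and 212, 299 and 528 CPM in PeatSmolder hearts, against 132.2, 180.5 and 214 CPM in saline hearts. No RedOakFlame heart overlapped saline, and Col1a2 rose there by 1.14 ± 0.34 (adjusted p = 0.0291); in PeatSmolder hearts it was 0.95 (adjusted p = 0.105).

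Col3a1, the type III chain of extensible fibrils, had 483, 635 and 971 CPM in RedOakFlame hearts and 392.2, 568 and 824 CPM in PeatSmolder hearts, against 271, 354 and 506 CPM in saline hearts. The groups overlapped, and the log2 change of Col3a1 was 0.90 ± 0.28 in RedOakFlame hearts (adjusted p = 0.0363) and 0.71 in PeatSmolder hearts (adjusted p = 0.145). Col27a1, a fibrillar chain known from cartilage, was called in PeatSmolder hearts and not in RedOakFlame hearts, and the difference between these was not tested. It had 4.30, 5.67 and 11.6 CPM in RedOakFlame hearts and 6.52, 8.97 and 13.6 CPM in PeatSmolder hearts, against 3.94, 4.91 and 6.25 CPM in saline hearts. The PeatSmolder hearts did not overlap saline, and Col27a1 rose there by 0.92 ± 0.27 (adjusted p = 0.0421); in RedOakFlame hearts it was 0.47 (adjusted p = 0.26).

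Of the 4 type IV chains tested in heart, Col4a1 and Col4a2, the partners of the basement membrane network found in most tissues, rose in both smokes. Col4a1 had 334, 475 and 690.3 CPM in RedOakFlame hearts, 287, 397 and 583 CPM in PeatSmolder hearts, 228, 316 and 475 CPM in PeatFlame hearts and 200.2, 269 and 337 CPM in RedOakSmolder hearts, against 167, 232 and 338 CPM in saline hearts. The ranges overlapped by little in RedOakFlame hearts, and the log2 change of Col4a1 was 0.98 ± 0.20 there (adjusted p = 0.00347) and 0.76 ± 0.20 in PeatSmolder hearts (adjusted p = 0.0308). Col4a2 had 177, 284 and 381 CPM in RedOakFlame hearts and 171, 262 and 370.0 CPM in PeatSmolder hearts, against 115.3, 153 and 215 CPM in saline hearts. It rose by 0.88 ± 0.19 in RedOakFlame hearts (adjusted p = 0.00422) and by 0.78 ± 0.19 in PeatSmolder hearts (adjusted p = 0.0204). Col4a3 and Col4a5, chains of the networks known from kidney and alveolar basement membranes, missed the threshold in RedOakFlame hearts at 1.38 (adjusted p = 0.0517) and 0.39 (adjusted p = 0.0854).

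Among the type VI chains, Col6a1 and Col6a2 rose in both smokes. Col6a1 had 74.2, 87.8 and 104.8 CPM in RedOakFlame hearts and 50.2, 91.2 and 102.6 CPM in PeatSmolder hearts, against 29.2, 36.6 and 54.1 CPM in saline hearts. Col6a2 had 224, 258 and 295 CPM in RedOakFlame hearts and 153, 262 and 341 CPM in PeatSmolder hearts, against 94.7, 125.1 and 153 CPM in saline hearts. No RedOakFlame heart overlapped a saline heart in either chain. The log2 change in RedOakFlame hearts was 1.22 ± 0.22 for Col6a1 (adjusted p = 0.00183) and 1.10 ± 0.21 for Col6a2 (adjusted p = 0.00223), and in PeatSmolder hearts 1.09 ± 0.22 for Col6a1 (adjusted p = 0.00827) and 1.06 ± 0.21 for Col6a2 (adjusted p = 0.00685). Col6a3, the long chain of the type VI molecule, had 19.99, 25.3 and 33.9 CPM in RedOakFlame hearts, against 5.51, 13.1 and 19.1 CPM in saline hearts, without overlap, but at 0.93 its adjusted p was 0.0777. Col6a6, an alternative to that long chain, was at 0.73 (adjusted p = 0.114).

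**Figure D2:**
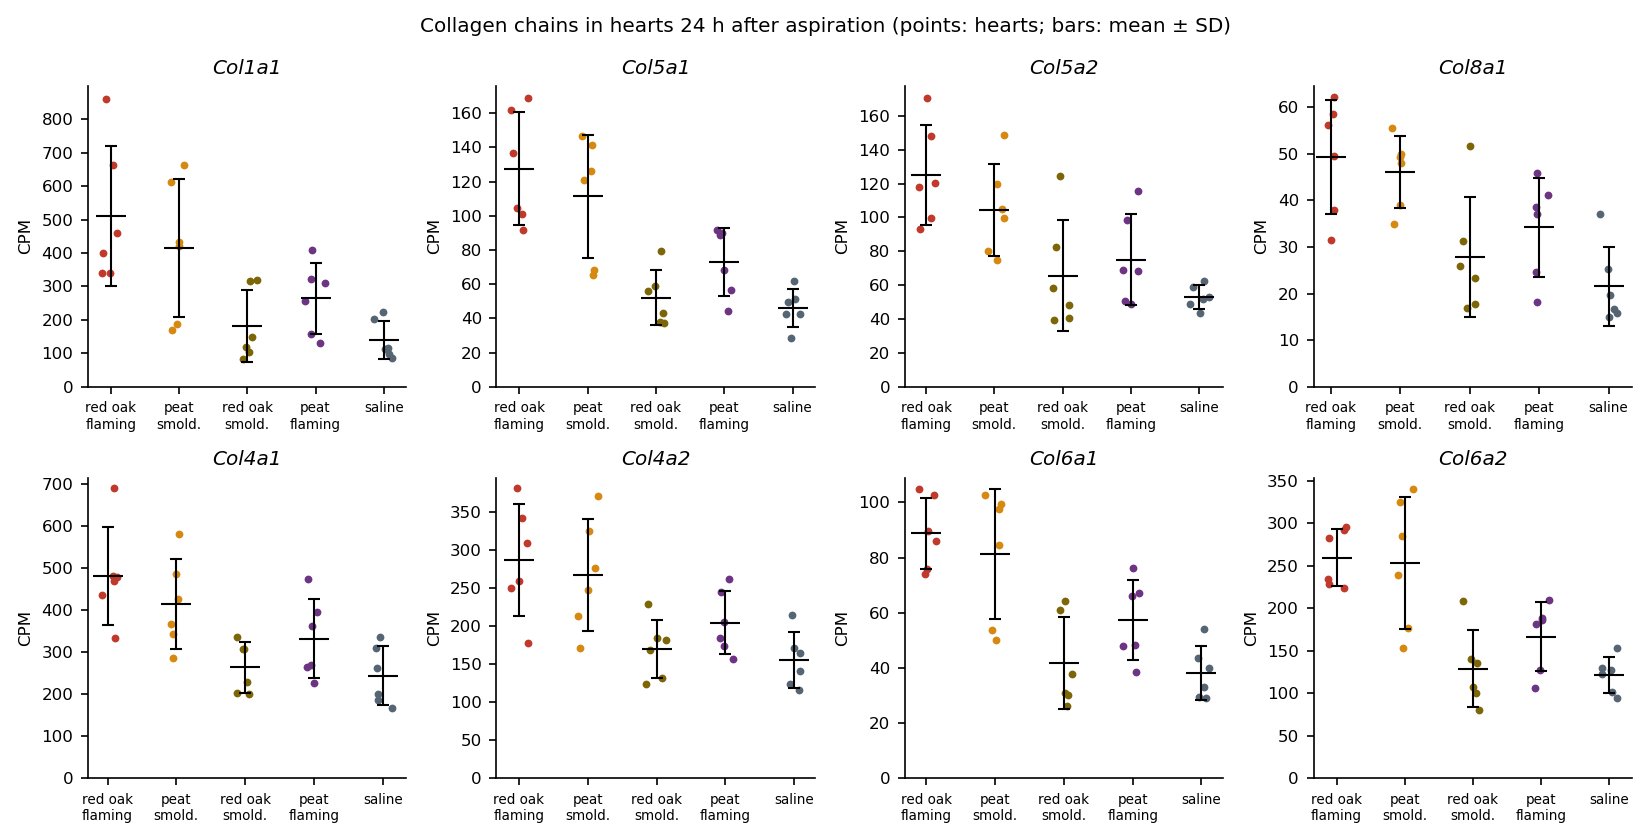
CPM of 8 collagen chains in hearts at 24 h, by smoke and saline; each point is a heart, and bars show mean ± SD (n = 6). RedOakFlame points lie above all saline points for Col1a1, Col5a1, Col5a2, Col6a1 and Col6a2, with medians of 429 against 115.4 CPM for Col1a1, and the RedOakSmolder points overlap saline in each panel.

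In the remaining classes, Col8a1, a short-chain collagen known from vessel walls and the valves of the heart, had 31.6, 52.9 and 62.1 CPM in RedOakFlame hearts and 34.9, 48.6 and 55.6 CPM in PeatSmolder hearts, against 14.9, 18.2 and 37.1 CPM in saline hearts. A single high saline heart overlapped, and Col8a1 rose by 1.2 ± 0.26 in RedOakFlame hearts (adjusted p = 0.00442) and by 1.09 ± 0.26 in PeatSmolder hearts (adjusted p = 0.018). Col14a1, a FACIT on the surface of fibrils, had 9.87, 12.9 and 32.8 CPM in RedOakFlame hearts, against 4.73, 6.76 and 9.89 CPM in saline hearts, and rose by 1.23 ± 0.38 (adjusted p = 0.0334). The multiplexins, proteoglycan collagens of basement membrane zones, both rose in RedOakFlame hearts. Col15a1 had 13.2, 18.1 and 29.6 CPM there, against 2.10, 6.70 and 15.8 CPM in saline hearts (1.23 ± 0.35, adjusted p = 0.0219). Col18a1, the source of endostatin, had 15.3, 22.98 and 59.6 CPM, against 5.32, 11.2 and 13.3 CPM in saline hearts, without overlap (1.37 ± 0.43, adjusted p = 0.0351). Col12a1, another FACIT, ran from 0.397 to 10.7 CPM in RedOakFlame hearts and from 0 to 2.63 CPM in saline hearts, and its log2 change of 2.05 did not pass (adjusted p = 0.224). Transmembrane Col13a1 was at 0.73 (adjusted p = 0.0982). In all, 8 of 21 chains lay higher without overlap in RedOakFlame hearts than in saline hearts, where 2.22% of all genes did, and 3 of 21 in PeatSmolder hearts, where 1.79% of all genes did. None of the 21 lay lower without overlap, against 1.68% of all genes in RedOakFlame hearts and 0.742% in PeatSmolder hearts.

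How far these calls rest on single hearts differed by chain. In RedOakFlame hearts Col1a1, Col5a1, Col5a2, Col4a1, Col4a2, Col6a1, Col6a2 and Col8a1 were called whichever heart was left out. Col1a2 missed the threshold without saline heart 1, 4 or 6 or RedOakFlame heart 2 or 4 (adjusted p 0.0517 to 0.11). Col3a1 missed it without saline heart 1, 3, 4 or 6 or RedOakFlame heart 2 or 4 (0.0624 to 0.0987), and Col5a3 without saline heart 2 or 4 or RedOakFlame heart 4 (0.0505 to 0.0529). Col14a1 missed it without saline heart 1, 4 or 6 or RedOakFlame heart 2 or 4 (0.056 to 0.149), Col15a1 without saline heart 1, 2 or 4 or RedOakFlame heart 2 (0.0539 to 0.0751), and Col18a1 without saline heart 1, 2, 4 or 6 or RedOakFlame heart 2 or 4 (0.0523 to 0.155). The count of 14 became 9 without saline heart 1, 8 without saline heart 4, and 9 without RedOakFlame heart 2 or 4. Shares of all genes called without a heart are not given here.

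In PeatSmolder hearts Col5a1, Col6a1 and Col6a2 were called whichever heart was left out. Col1a1 missed the threshold without saline heart 1, 2, 4 or 6 or PeatSmolder heart 1, 3 or 4 (adjusted p 0.0516 to 0.0833), and Col5a2 without saline heart 1 or 4 or PeatSmolder heart 1, 3 or 4 (0.0511 to 0.0833). Col4a1 missed it without saline heart 1, 2 or 4 or PeatSmolder heart 1, 3, 4 or 6 (0.0577 to 0.0845), Col4a2 without saline heart 1, 2 or 4 or PeatSmolder heart 1 (0.0503 to 0.06), and Col8a1 without saline heart 4 (0.0503). Col27a1 missed it without any 1 of the 6 saline hearts or PeatSmolder heart 1, 3, 4 or 6 (0.0508 to 0.131). Col15a1 was called without saline heart 5 (1.2, adjusted p = 0.0474). The count of 9 became 4, 5 and 3 without saline heart 1, 2 and 4, and 4, 5 and 5 without PeatSmolder heart 1, 3 and 4. Here, too, shares of all genes are not given.

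Cell markers moved in the same hearts. The endothelial marker sum was 508 to 593 CPM in RedOakFlame hearts and 484 to 576 CPM in PeatSmolder hearts, against 303 to 407 CPM in saline hearts, with 4 of 5 and 2 of 5 markers called higher. The fibroblast sum was 1931 to 3410 CPM in RedOakFlame hearts and 1993 to 3022 CPM in PeatSmolder hearts, against 1493 to 2427 CPM in saline hearts. Of its 6 tested markers 3 rose in RedOakFlame hearts (Pdgfra, Pi16 and Dcn) and 1 in PeatSmolder hearts (Pdgfra). Pdgfra, the receptor that marks fibroblasts, was at 191 to 315 CPM in RedOakFlame hearts, against 94.3 to 133.4 CPM in saline hearts. The sum of smooth muscle and pericyte markers was 1166 CPM in RedOakFlame heart 2, 1207 CPM in PeatFlame heart 2, 1621 CPM in PeatSmolder heart 3 and 471 CPM in RedOakSmolder heart 4, against 69.9 to 297 CPM in all other hearts, and 3 of 6 of these markers rose in RedOakFlame hearts and 0 of 6 in PeatSmolder hearts (3 at an unadjusted p below 0.05). None of the 6 heart muscle markers was called by edgeR in either smoke, with 4 and 1 of them at an unadjusted p below 0.05. Their sum ran lower in RedOakFlame hearts, at 37002 to 44966 CPM, than in saline hearts, at 41630 to 50520 CPM, with overlap. In PeatSmolder hearts it was 41267 to 46781 CPM. Without the 4 hearts of high smooth muscle markers 12 chains were called in RedOakFlame hearts and 7 in PeatSmolder hearts, and the shares of all genes there are not given here. The part of these cell markers in the collagen result was otherwise not tested.

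The hearts also differed in how many genes had a count. The number was 13446 to 14329 in RedOakFlame, 13604 to 13949 in PeatSmolder, 13273 to 13853 in PeatFlame and 13352 to 13858 in RedOakSmolder hearts, against 13187 to 13503 in saline hearts. With that number as a term in the fit, 0 collagen chains were called in RedOakFlame or PeatSmolder hearts, 3 and 0 of all genes were called, and the median log2 change of the chains was 0.53 and 0.49. Col5a1 was then at 1.07 in RedOakFlame hearts (adjusted p = 0.146) and 0.94 in PeatSmolder hearts (adjusted p = 0.131), and Col14a1 at -0.01 in RedOakFlame hearts. Over the 30 hearts, after group means, all 23 chains with a mean of at least 1 TMM-scaled CPM there correlated positively with the number, and 18 of them (78.3%) passed at an adjusted permutation p below 0.05 (family of 50, median r 0.48), or 17 by Spearman's rho. Of all 11693 genes of the same minimum in heart, 54.9% had an r above 0, 15.2% had one at or above 0.375, that of the weakest chain that passed, and 14.8% had one at or below -0.375, 30% in all. Col14a1 had r = 0.80 and rho = 0.79 (r 0.75 without the 2 hearts farthest from the median number, adjusted permutation p = 2.5e-05 and 2.6e-05). Col1a1 had r = 0.66 and rho = 0.68 (0.62 without the 2, adjusted permutation p = 0.00025 and 0.00018), while Col4a1 at r = 0.18 (rho 0.26, 0.36 without the 2) and Col4a2 at r = 0.07 (rho 0.21, 0.31 without the 2) did not pass. How much of the collagen change this number carries was not tested.

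Genes that act on collagen were looked at as lists chosen with earlier results of these data known. Of the genes of collagen folding and hydroxylation, 3 of 17 tested rose in RedOakFlame hearts and the same number in PeatSmolder hearts, with list medians of 0.10 and 0.07. They included P3h3, a prolyl hydroxylase family member (0.82), Plod3, a lysyl hydroxylase (0.63), and Creb3l1, a transcription factor of collagen secretion (0.97), all values from RedOakFlame hearts. Of the procollagen processing genes 3 of 7 rose in RedOakFlame hearts and 2 of 7 in PeatSmolder hearts. Adamts2, which removes the amino-terminal propeptide, was at 1.55 and 1.37, and Pcolce2, an enhancer of the carboxy-terminal protease, at 0.60 and 0.63. Of the cross-linking lysyl oxidases 3 of 4 rose in RedOakFlame hearts (Loxl3 at 1.5, Loxl1 at 1.33 and Loxl2 at 1.32) and 2 of 4 in PeatSmolder hearts (Loxl2 at 1.45 and Loxl3 at 0.93), with list medians of 1.32 and 0.87. Of the breakdown and uptake genes 2 of 6 rose in both smokes. Mmp2, a gelatinase, had 215 to 397 CPM in RedOakFlame hearts, against 74.3 to 116.3 CPM in saline hearts, and its activator Mmp14 was at 1.01. Of 5 collagen receptors, Itga11 rose in RedOakFlame hearts (1.43) and Ddr2 in PeatSmolder hearts (0.61). No gene of these 5 lists was called lower in either smoke.

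The 4 smokes also allowed the fuel and the burning phase to be compared. Between RedOakFlame and RedOakSmolder hearts, 10 of 21 chains were higher in RedOakFlame (3.2% of all genes were called higher), Col1a1 by 1.48, Col5a1 by 1.28 and Col6a1 by 1.07, and 4 of the 21 lay higher without overlap, where 1.3% of all genes did, and none lower, where 1.9% did. With the number of genes with a count as a term 2 of the 10 calls were left, Col5a1 at 1.06 (adjusted p = 0.0311) and Col6a1 at 0.85 (0.0499). Between PeatFlame and PeatSmolder hearts no chain was called by edgeR or DESeq2 (0.00895% of all genes were, and 4 of 21 chains and 7.34% of all genes were at an unadjusted p below 0.05). There 20 of 21 chains lay lower in PeatFlame, Col6a2 and Col5a1 both at -0.61. Flaming minus smoldering over both fuels gave 0 chains by edgeR and DESeq2 (0.0358% of all genes), with 3 of 21 chains (14.3%) at an unadjusted p below 0.05, near the 16.9% of all genes, and a median of 0.21. The mean of the 4 smokes was above saline in 5 of 21 chains (1.43% of all genes were called higher), with Col5a1 at 0.90, Col8a1 at 0.83, Col5a2 at 0.76, Col6a1 at 0.76 and Col6a2 at 0.68. With the number of genes with a count as a term it was 0, with DESeq2 11, with no filter on low counts 2, with each probe on its own 3, and without the 4 hearts of high smooth muscle markers 1. Shares of all genes called in these alternative fits are not given here. That count of 5 became 0 without saline heart 1 or 4, 1 without saline heart 2 or 6, and 8 without saline heart 5. It became 2 without RedOakFlame heart 4 or PeatSmolder heart 4, 3 without PeatSmolder heart 1, 3 or 6 or PeatFlame heart 3, 4 or 6, 8 without RedOakSmolder heart 2, and 9 without RedOakSmolder heart 5 or PeatSmolder heart 2.

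The difference between fuels in the effect of phase (flaming minus smoldering in red oak, minus the same in peat), a contrast added after the data were seen, was called for 7 of 21 chains, all above 0, against 1.06% of all genes called higher. Col5a1 was at 1.89 ± 0.33 (adjusted p = 0.00568), Col6a2 at 1.61 ± 0.29 (0.00568), Col6a1 at 1.58 ± 0.31 (0.00906), Col4a2 at 1.12 ± 0.27 (0.0249), Col4a1 at 1.17 ± 0.29 (0.0282), Col5a2 at 1.40 ± 0.35 (0.0347) and Col1a1 at 2.14 ± 0.56 (0.0436). With the number of genes with a count as a term 3 of the 7 were called, Col5a1 at 1.60, Col6a1 at 1.29 and Col6a2 at 1.41. These chains were high in the flaming smoke of red oak and in the smoldering smoke of peat. Leaving out 1 heart kept the calls of Col5a1, Col6a1 and Col6a2 and ended that of Col4a2 without RedOakSmolder heart 2 or 5, PeatSmolder heart 1 or 6 or PeatFlame heart 2 or 5 (adjusted p 0.0507 to 0.0637). Col4a1 missed the threshold without RedOakSmolder heart 1, 2 or 5, PeatSmolder heart 1, 4 or 6, RedOakFlame heart 4 or PeatFlame heart 1, 2 or 5 (0.0509 to 0.067). Col5a2 missed it without RedOakSmolder heart 1, 2, 3 or 5, PeatSmolder heart 1, 3, 4 or 6, RedOakFlame heart 2 or 4 or PeatFlame heart 1, 3 or 5 (0.0519 to 0.0762). Col1a1 missed it without RedOakSmolder heart 1, 2, 3 or 5, PeatSmolder heart 1, 3, 4 or 6, RedOakFlame heart 2, 4 or 5 or PeatFlame heart 1, 2, 3 or 5 (0.0524 to 0.0923). The count of 7 became 3 without RedOakSmolder heart 2 or 5, PeatSmolder heart 1 or 6 or PeatFlame heart 5. It became 4 without RedOakSmolder heart 1, PeatSmolder heart 4, RedOakFlame heart 4 or PeatFlame heart 1 or 2. Shares of all genes called with that term or without a heart are not given here, so these counts stand without their background.

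Promoters are shown for 4 of the chains that rose in RedOakFlame hearts, as the 250 bases before the start site in RefSeq (GRCm38.p6). Capitals mark the motifs searched on both strands, which are the CCAAT box (letters CCAAT), the TATA box (letters TATAAA) and the GC box (letters GGGCGG). In these 4 sequences the marked motifs do not overlap. Col5a1 and Col6a1 were among the steadiest calls, Col3a1 is the only 1 of these 4 with a TATA box, and Col1a2 holds both other motifs. Col6a1 holds none of the motifs, so these 4 sequences share no marked motif.
Col5a1, chr2:27886175-27886424, strand plus: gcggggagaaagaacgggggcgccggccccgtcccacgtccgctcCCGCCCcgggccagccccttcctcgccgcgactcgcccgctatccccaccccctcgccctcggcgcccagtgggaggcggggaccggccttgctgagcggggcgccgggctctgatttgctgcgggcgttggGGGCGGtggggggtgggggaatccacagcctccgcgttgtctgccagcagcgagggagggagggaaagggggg
Col6a1, chr10:76726045-76726294, strand minus: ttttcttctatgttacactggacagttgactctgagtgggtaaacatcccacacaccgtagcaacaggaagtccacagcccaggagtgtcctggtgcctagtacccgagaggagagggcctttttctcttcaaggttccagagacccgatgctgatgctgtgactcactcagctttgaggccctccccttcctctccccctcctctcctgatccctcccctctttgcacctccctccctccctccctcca
Col3a1, chr1:45311288-45311537, strand plus: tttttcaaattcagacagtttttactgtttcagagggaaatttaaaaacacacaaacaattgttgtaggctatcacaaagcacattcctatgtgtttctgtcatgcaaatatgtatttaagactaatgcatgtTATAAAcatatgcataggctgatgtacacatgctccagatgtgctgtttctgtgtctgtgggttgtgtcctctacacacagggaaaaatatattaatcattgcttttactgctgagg
Col1a2, chr6:4505368-4505617, strand plus: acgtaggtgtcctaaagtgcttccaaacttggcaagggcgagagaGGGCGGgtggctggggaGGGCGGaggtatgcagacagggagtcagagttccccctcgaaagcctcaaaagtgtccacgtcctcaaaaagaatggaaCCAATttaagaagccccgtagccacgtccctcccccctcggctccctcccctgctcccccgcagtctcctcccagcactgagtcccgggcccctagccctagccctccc
Among the members, 25 promoters of 23 genes matched RefSeq's table, and there was no entry for Col1a1, Col4a3, Col5a2, Col12a1 and Col14a1. The GC box was in 64% of these 25 promoters and in 61.54% of the 13 promoters of the 11 matched chains that rose in RedOakFlame hearts, against 32.74% of all 32851 promoters. The CCAAT box was in 28% of members' promoters and 38.46% of those of the chains that rose, against 33.85% of all, and the TATA box in 12% and 7.692%, against 12.37% of all. These matches describe the letters only.

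In the lung, 3 collagen chains were called after LPS at 4 h and 5 at 24 h, and the LPS effect itself was called as different between the times for Col14a1 alone of the 27 chains. At 4 h, 2 of 27 chains were higher (5.37% of all 14458 genes were called higher) and 1 was lower (3.47% were called lower), counts near the background of all genes. With the 4 h lungs fitted alone 7 chains were called, 3 higher and 4 lower, and the share of all genes called in that fit is not given here. Col4a1 had 365, 1205, 655 and 434 CPM in the 4 LPS lungs, against 151, 283 and 344 CPM (lowest, median and highest) in saline lungs. Its partner Col4a2 had 115.4, 616, 365 and 284 CPM in LPS lungs, against 34.02, 120.5 and 194 CPM in saline lungs. LPS lung 2 was the highest for both chains; every LPS lung lay above saline for Col4a1, and LPS lung 1 lay within the saline range for Col4a2. Col4a1 rose by 1.29 ± 0.37 (adjusted p = 0.0125) and Col4a2 by 1.54 ± 0.49 (adjusted p = 0.0289). Without LPS lung 2 these were 0.85 for Col4a1 (adjusted p = 0.239) and 1.12 for Col4a2 (adjusted p = 0.242). Col4a2 also missed the threshold without saline lung 1 (0.0928), saline lung 3 (0.0624) or LPS lung 3 (0.0657).

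The chain that fell at 4 h was Col3a1. It had 239, 273, 342 and 288 CPM in LPS lungs, against 376, 518 and 823 CPM in saline lungs. All LPS lungs lay below all saline lungs, and the log2 change of Col3a1 was -0.92 ± 0.25 (adjusted p = 0.00595); with each probe tested on its own the smallest adjusted p was 0.111. The median change of the 27 chains at 4 h was -0.51, against -0.04 for all genes, and 10 of them (37%) were at an unadjusted p below 0.05, against 19.8% of all genes. Col1a1 was at -1.21 (adjusted p = 0.403), within the wide spread of that gene in lung.

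At 24 h after LPS 5 of 27 chains were lower, against 4.52% of all genes called lower, and none was higher, against 7.51% of all genes called higher. The count depended on the fit: 8 chains were called with DESeq2, all lower, 3 with the 24 h lungs fitted alone, and 9 (8 lower and Col4a1 higher) either without the 6 lung libraries under 13000 genes or with the number of genes with a count as a term. The 5 chains were among those called in each of these but the fit of 24 h alone, which called Col14a1, Col4a5 and Col8a1. Shares of all genes called in these fits are not given here. Col14a1, the fibril-surface FACIT, had 0.328, 0.236, 0.223 and 0.995 CPM in LPS lungs, against 4.27, 5.63 and 10.4 CPM in saline lungs. Col4a5, a basement membrane chain of the alveolus, had 28.05, 19.4, 28.2 and 30.3 CPM in LPS lungs, against 50.5, 56.4 and 62.7 CPM in saline lungs. Neither overlapped, and Col14a1 fell by 3.80 ± 0.76 on the log2 scale (adjusted p = 6.4e-05) and Col4a5 by 1.10 ± 0.25 (adjusted p = 0.00065). Col8a1 had 8.86, 12.5, 7.60 and 5.38 CPM in LPS lungs, against 12.9, 18.8 and 29.6 CPM in saline lungs, without overlap. Col8a1 fell by 1.19 ± 0.34 (adjusted p = 0.00984), and missed the threshold without LPS lung 4 (-1.0, adjusted p = 0.0642).

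Col6a3 had 170.4, 199.9, 167 and 135.6 CPM in LPS lungs, against 179, 267 and 403 CPM in saline lungs, and Col12a1 had 11.8, 10.6, 11.8 and 5.77 CPM, against 12.97, 24.7 and 40.97 CPM in saline lungs. Col12a1 did not overlap and fell by 1.37 ± 0.47 (adjusted p = 0.0369), and Col6a3, where LPS lung 2 lay within the saline range, fell by 0.76 ± 0.26 (adjusted p = 0.0343). Both missed the threshold when any 1 of the 4 LPS lungs was left out, with an adjusted p of 0.0562 to 0.126 for Col6a3 and 0.0603 to 0.124 for Col12a1. Col6a3 also missed it without saline lung 2 or 3 (0.108 and 0.0998) and Col12a1 without saline lung 1, 3 or 6 (0.0696, 0.107 and 0.0564). Of the 5 calls, 3 held without LPS lung 1, 2 or 3 and 2 held without LPS lung 4, where Col5a3 was called as well (-2.42, adjusted p = 0.0141).

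Col4a1 stayed high in LPS lungs at 24 h, at 1059, 964, 1232 and 818 CPM, against 212, 407 and 818 CPM in saline lungs, but 1.03 ± 0.37 missed the threshold (adjusted p = 0.0529). It passed without saline lung 1 (0.0401) or saline lung 3 (0.0181), the pair of saline lungs with the most Col4a1. Col4a2 was at 0.71 (adjusted p = 0.407) and Col3a1 at -0.37 at 24 h. The main fibril chains Col1a1 at -0.04 and Col1a2 at -0.17 showed no call at this time. The LPS effect at 24 h minus that at 4 h was called for 1 of 27 chains, Col14a1 at -3.52 ± 0.94 (adjusted p = 0.0489), against 0.138% of all genes called lower. That call was absent with DESeq2's size factors or with no filter on low counts. The same difference was -0.26 for Col4a1, -0.83 for Col4a2, 0.55 for Col3a1, -0.69 for Col4a5, -0.50 for Col8a1, -1.65 for Col12a1 and -0.08 for Col6a3, with adjusted p of 0.318 or more, so the other chains called at 1 time are not shown to differ between times.

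**Figure D3:**
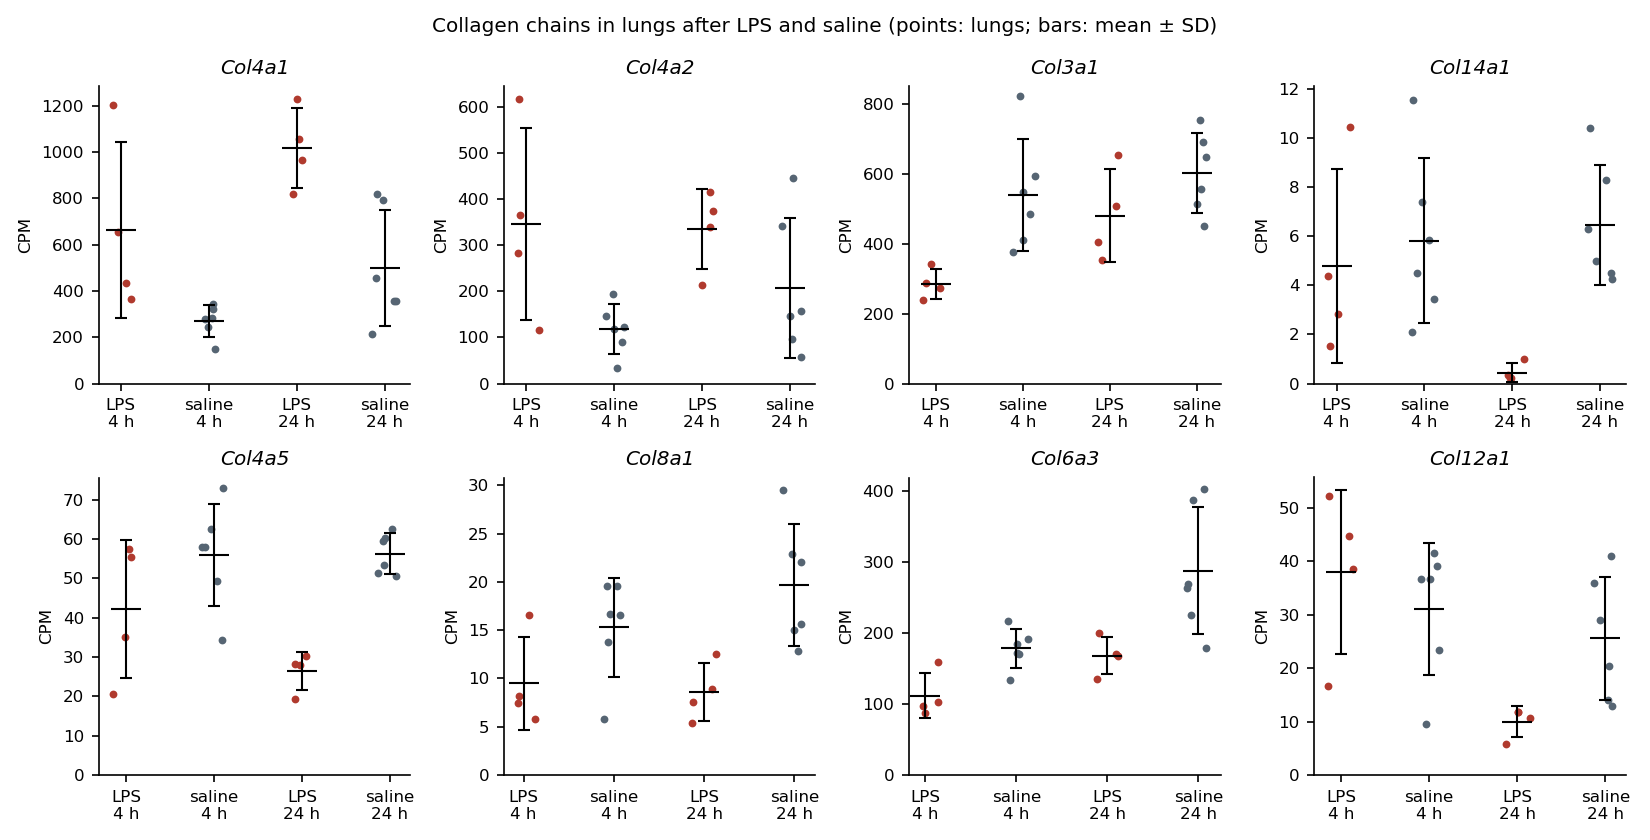
CPM of 8 collagen chains in lungs after LPS (n = 4) and saline (n = 6) at 4 h and 24 h; each point is a lung and bars show mean ± SD. LPS points lie above saline for Col4a1 at 4 h and below it for Col3a1 at 4 h and for Col14a1 (0.223 to 0.995 against 4.27 to 10.4 CPM) and Col4a5 at 24 h.

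Markers of other cells differed in the same LPS lungs. At 4 h neutrophil markers summed to 272 to 1183 CPM in LPS lungs and 35.2 to 65.8 CPM in saline lungs, and 6 of 6 were called higher, such as S100a8 at 5.08 and Cxcr2 at 3.43. Mesothelium markers summed to 87.2 to 247 CPM in LPS lungs and 152 to 444.9 CPM in saline lungs at 4 h, with 1 of 4, Lrrn4 at -1.89, called lower. No marker of fibroblasts (8), endothelium (5) or smooth muscle and pericytes (6) was called by edgeR at 4 h, with 2, 0 and 1 at an unadjusted p below 0.05. At 24 h neutrophil markers summed to 245 to 375 CPM in LPS lungs and 13.1 to 32.1 CPM in saline lungs, with 6 of 6 called higher. Fibroblast markers summed to 1658 to 3979 CPM in LPS lungs and 3308 to 5894 CPM in saline lungs, and 2 of 8, Dcn at -1.38 and Inmt at -1.24, fell. Smooth muscle and pericyte markers summed to 329 to 440 CPM in LPS lungs and 476 to 1146 CPM in saline lungs, with 2 of 6 lower, and heart muscle markers to 108.7 to 156 CPM in LPS lungs and 221 to 950 CPM in saline lungs, with 3 of 6 lower. Mesothelium markers summed to 79.2 to 161 CPM in LPS lungs and 80.8 to 374 CPM in saline lungs, with 1 of 4, Upk3b at -1.94, called lower. The part of these in the collagen differences at either time was not tested. Of the genes that act on collagen at 24 h, Mmp8, the neutrophil collagenase, was at 5.77, Mmp9 at 2.82 and Mmp14 at 1.75, 3 of 8 breakdown genes called higher, where 7.51% of all genes were. In folding Plod3 was at 1.32 and Ppib at 0.51, both called higher, and Colgalt2 at -2.97, called lower, of 19 tested. Pcolce2 at -1.71 was the only 1 of 8 processing genes called, and no cross-linking gene of 5 and no receptor of 6 was called by edgeR at 24 h, with 3 and 1 of them at an unadjusted p below 0.05.

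After smoke few differences of collagen chains in lung passed the test. Over the 10 smokes and 27 chains, 0 of 270 chain and smoke pairs were called at 4 h by edgeR or DESeq2 (0.0422% of the pairs of all genes were), with 12 pairs (4.44%) at an unadjusted p below 0.05, against 4.99% of pairs of all genes. Of the 12 pairs, 6 were in RedOakFlame lungs, 22.2% of the 27 chains there against 5.13% of all genes, and 20 of 27 chains lay above saline in them, with a median of 0.22. The log2 changes at 4 h ran from -1.61 to 1.13, and 260 of the 270 lay within 1 of saline. At 24 h 1 of 270 pairs was called (0.185% of pairs of all genes), 27 pairs (10%) were at an unadjusted p below 0.05, against 7.22% of pairs of all genes, and the changes ran from -2.90 to 2.78. The median standard error of such a change was 0.41 at 4 h and 0.42 at 24 h. The mean of the 10 smokes gave 0 of 27 chains by edgeR and DESeq2 at 4 h (0% of all genes) and at 24 h (0.00692% of all genes), with 1 and 2 chains at an unadjusted p below 0.05. Flaming minus smoldering gave 0 of 27 by both tools at 4 h (2.36% of all genes) and 24 h (0.111% of all genes), with 2 chains at an unadjusted p below 0.05 at each time.

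The single call was Col27a1 in RedOakFlame lungs at 24 h, among 1.54% of all genes called higher there. Col27a1 had 23.4, 209.6 and 4507 CPM as the lowest, the second highest and the highest of the RedOakFlame lungs, against 29.9, 97.3 and 316 CPM (lowest, median and highest) in saline lungs. The highest, RedOakFlame lung 6, was the lung library with the fewest genes with a count, 9886, and the other 5 overlapped saline. The log2 change of Col27a1 was 2.78 (adjusted p = 0.0482), and -0.68 without the 6 lung libraries under 13000 genes. The smoke with 14 chains higher in the heart gave no other collagen call in the lungs of the same mice, and the difference between the tissues was not tested. The median standard error of a chain's change was 0.29 in RedOakFlame hearts and 0.41 in RedOakFlame lungs at 24 h, so a change of the same size is called less readily in lung.

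Between hearts and lungs of the 6 saline mice, 3 of 28 chains were higher in heart (32.1% of all 13746 genes were) and 18 were lower (42.4% of all genes were), and the share of chains called, 75%, lay near that of all genes. The median heart minus lung difference was -2.09 for the chains and -0.34 for all genes, with 2 chains higher without overlap (26% of all genes) and 14 lower without overlap (29.8% of all genes). A chain with a mean of 1 CPM in a single tissue became a member through that tissue, so its direction here was set by the choice of members. This holds for Col15a1, a member through heart, and for Col4a4, Col4a6, Col11a2, Col16a1, Col20a1 and Col23a1, members through lung, all called in that direction, and their values are a description. Among the 21 chains at the minimum in both tissues, 2 were higher in heart and 12 lower, 66.7% in all, with a median of -0.88. The 3 chains higher in heart were Col15a1, Col6a6 and Col5a3. Col15a1, a basement membrane zone multiplexin, had 2.10, 6.70 and 15.8 CPM in hearts, against 0, 0.069 and 1.08 CPM in lungs. Col6a6 had 8.80, 13.5 and 21.3 CPM in hearts, against 0.225, 1.17 and 2.43 CPM in lungs. Neither overlapped, and the log2 difference was 4.85 for Col15a1 and 3.43 ± 0.49 for Col6a6. Col5a3 had 2.89, 7.12 and 11.4 CPM in hearts, against 1.52, 3.42 and 5.37 CPM in lungs, with overlap (1.12 ± 0.37, adjusted p = 0.0061).

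Lower in heart were 5 of 6 type IV chains, 5 of 8 fibrillar chains, 3 of 4 FACITs, both transmembrane chains and 1 each of the type VI, short-chain and multiplexin chains. These counts include the 6 members through lung, whose direction was set by the choice of members. They are Col4a4 and Col4a6 of type IV, fibrillar Col11a2, the FACITs Col16a1 and Col20a1, and transmembrane Col23a1. Col1a1 had 85.6, 115.4 and 222 CPM in hearts, against 671, 2218 and 8833 CPM in lungs (log2 difference -4.45). Col6a3 had 5.51, 13.1 and 19.1 CPM in hearts, against 179, 267 and 403 CPM in lungs (-4.39), and transmembrane Col13a1 had 3.38, 6.61 and 11.7 CPM, against 171, 237 and 374 CPM in lungs (-5.22). For these chains no heart reached the lowest lung. Col4a4, a member through lung, was at -8.26, with Col4a3, its partner in the alveolar and kidney basement membrane network, at -4.50, while Col4a1 was at -1.01 and Col4a2 at -0.40 without a call. Col5a1, Col5a2, Col6a1, Col6a2, Col8a1 and Col14a1 were likewise not called, at 0.58, -0.33, -0.31, -0.29, 0.16 and 0.12. All hearts were on plate 2; with only plate 2 libraries in the fit the count was again 21. Col3a1 at -0.68 (adjusted p = 0.0141) missed the threshold without saline animal 5 (0.0559), as did Col5a3 (0.0549), and Col4a1 without saline animal 1 (0.0586).

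**Figure D4:**
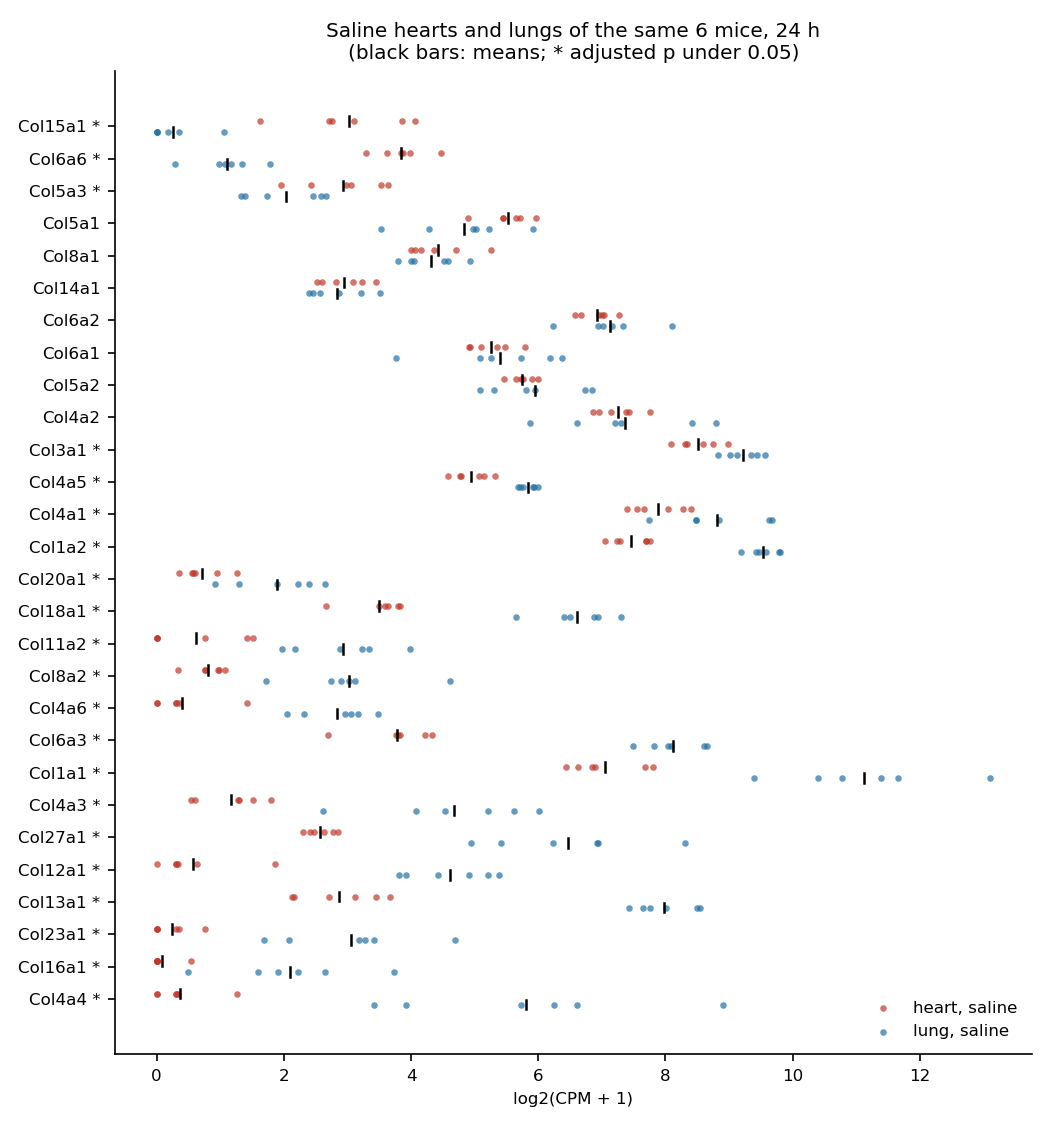
Levels, as log2(CPM + 1), of the collagen chains in hearts and lungs of the 6 saline mice at 24 h; each point is a library, hearts beside the lungs of the same mice, and a star marks an adjusted p below 0.05. Points of Col15a1 and Col6a6 lie higher in heart, and those of 18 starred chains, such as Col1a1, Col6a3 and Col13a1, lie lower in heart. Col15a1 is a member through heart and 6 of the 18 are members through lung, so their direction was set by the choice of members.

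Probes of a chain did not always give the same difference. For Col1a1, probe 59966 gave a heart minus lung difference of -5.09 and probe 29427 one of -1.77, and the first held 92.5% of the counts of Col1a1 in lung. For Col27a1 the probes 63225 and 72613 gave -6.29 and -2.01, and for Col3a1 the probes 72032, 79060 and 30618 gave -3.79, -0.47 and -0.10. For Col4a1, probe 29931 gave 1.13, higher in heart, while the other probes gave -1.84 and -1.21. The direction of Col4a1 between tissues therefore depends on the probe.

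Across the 140 lungs the chains followed the number of genes with a count, in opposite directions. After group and plate were removed, 15 of 27 chains were called above 0 and 10 below 0 by Pearson's r (family of 50 correlations, permutation test with 100000 draws), all but Col13a1 and Col8a1. By Spearman's rho 23 of the 27 were called, without Col1a2 (r 0.31, rho 0.16, r 0.13 without the 2 libraries farthest from the median number) and Col4a6 (r 0.31, rho -0.01, r -0.02 without the 2). Most genes did the same: of all 13140 genes with a mean of at least 1 TMM-scaled CPM in lung, 64.9% had an r above 0, 57.3% had an r at or above 0.203, that of the weakest chain called, and 28.9% one at or below -0.203, 86.2% in all, against 92.6% of the chains. Col6a1 had r = 0.92 and rho = 0.80, and r = 0.89 without the 2 libraries farthest from the median. Col4a3 had r = 0.85 and rho = 0.78 (0.81 without the 2), and Col5a1 r = 0.80 and rho = 0.72 (0.77 without the 2). On the other side, Col27a1 had r = -0.87 and rho = -0.78 (-0.83 without the 2), Col4a4 r = -0.84 and rho = -0.79 (-0.81 without the 2), and Col1a1 r = -0.79 and rho = -0.66 (-0.71 without the 2). For these 6 chains the permutation p was 1.0e-05, the smallest the draws can give, with adjusted values of 2.5e-05 for r and 2.6e-05 for rho. Within plate 1 and plate 2, r was 0.80 and 0.96 for Col6a1, 0.75 and 0.94 for Col4a3, 0.76 and 0.84 for Col5a1, -0.78 and -0.92 for Col27a1, -0.77 and -0.92 for Col4a4 and -0.56 and -0.86 for Col1a1. Of 18 chains with several probes, 10 had probes of both signs: Col1a1 probe 59966 was at r = -0.70 and probe 29427 at 0.47, and Col27a1 probe 63225 at -0.78 and probe 72613 at 0.47. Probes below 0 numbered 13 of 58. Of the 10 chains, Col11a2 had a probe at only 0.007, and the probe of Col1a2 below 0 held 0.04% of its lung counts. These probe values are not on the scale of the chain values above. With 1 probe each, Col5a3 was at -0.235 as a chain and 0.03 as a probe, Col4a5 at 0.48 and 0.77, and Col23a1 at -0.54 and -0.36. The sign of Col5a3 thus depends on the scale.

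**Figure D5:**
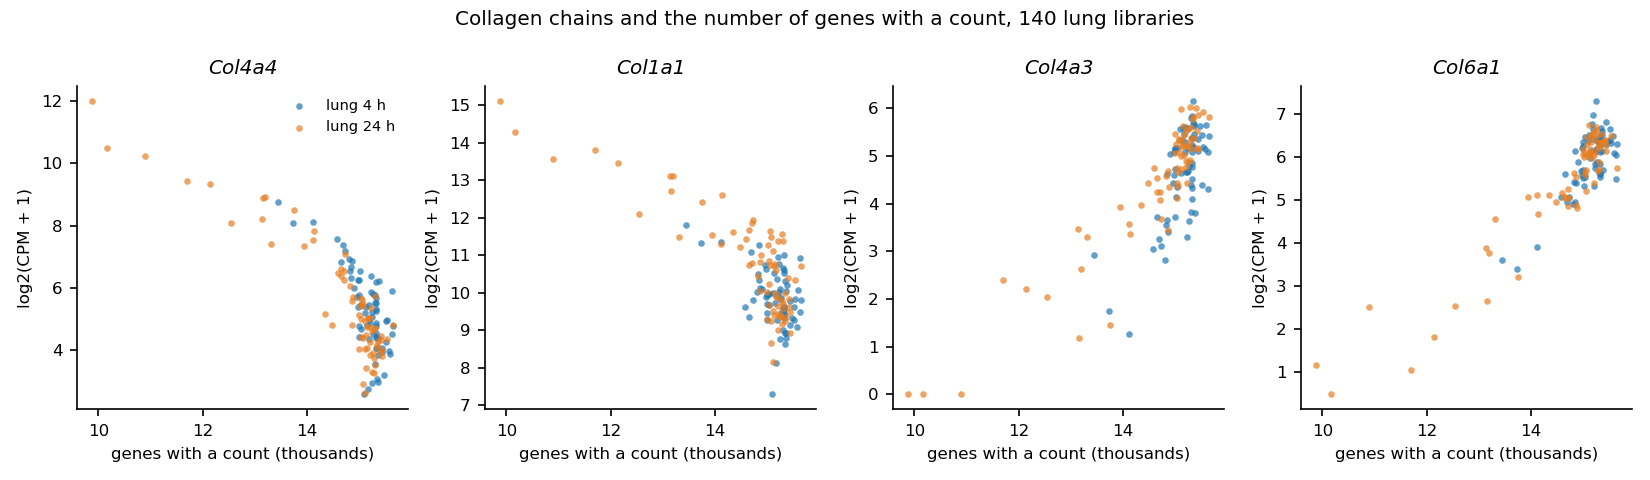
Level, as log2(CPM + 1), of Col4a4, Col1a1, Col4a3 and Col6a1 against the number of genes with a count in 140 lung libraries, coloured by time; each point is a lung. Col4a4 and Col1a1 fall and Col4a3 and Col6a1 climb as more genes have a count, with r of -0.84, -0.79, 0.85 and 0.92 after group and plate were removed.

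Partner chains were then set against each other, 7 pairs in each tissue, as residuals of log2(CPM + 1) after group and plate, with 14 correlations in the family. In the 30 hearts Col1a1 and Col1a2 had r = 0.87 (rho 0.90, and 0.87 without the 2 hearts farthest from the median of the first chain), Col4a1 and Col4a2 0.86 (0.87 and 0.84), Col5a1 and Col5a2 0.84 (0.84 and 0.82), and Col6a1 and Col6a2 0.85 (0.88 and 0.83), each with an adjusted permutation p of 1.7e-05. In the 140 lungs, too, Col4a1 and Col4a2 moved together (r = 0.85, rho 0.81, 0.84 without the 2, 0.87 and 0.85 within plate 1 and 2). So did Col6a1 and Col6a2 (0.86, rho 0.81, 0.83 without the 2, 0.84 and 0.90 within plates) and Col5a1 and Col5a2 (0.67, rho 0.60, 0.64 without the 2, 0.64 and 0.73 within plates), again with an adjusted permutation p of 1.7e-05.

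Type I and the alveolar type IV pair differed from this in lung. Col1a1 and Col1a2, partners in a single molecule, had r = 0.08 in lungs (adjusted permutation p = 0.349; rho 0.28, adjusted permutation p = 0.00126), and 0.23 and -0.06 within plates. Without the 2 lungs farthest from the median of Col1a1, r was 0.32 (adjusted permutation p = 1.2e-04). That was higher than over all 140 lungs, but below the 0.64 of Col5a1 with Col5a2 and the 0.84 of Col4a1 with Col4a2 without their 2. Col4a3 and Col4a4, also partners, ran against each other in lungs, with r = -0.90 (rho -0.86, -0.88 without the 2, -0.87 and -0.93 within plates, adjusted permutation p = 1.7e-05), and in hearts r was 0.27 (rho 0.05, adjusted permutation p = 0.178). Col6a1 and Col6a3 had r = -0.28 in lungs (rho -0.23, adjusted permutation p = 0.00157), but 0.07 and -0.43 within plates, and 0.49 in hearts (adjusted permutation p = 0.00711). Col8a1 and Col8a2 had r = 0.02 in lungs (adjusted permutation p = 0.841) and 0.47 in hearts (adjusted permutation p = 0.0108). Of these pairs, Col4a1 with Col4a2 and Col4a3 with Col4a4 overlap in the genome in RefSeq's table. Col6a1 and Col6a2 lie on the same chromosome, 10, without overlap. The pairs are sums over probes and were not tested by probe. Against the number of genes with a count in lung, Col1a1 probe 59966 (92.5% of its counts) was at r = -0.70 and probe 29427 at 0.47. Probes of Col1a2 were at 0.62 to 0.84, apart from a probe of 0.04% of its counts. Of Col6a3, probe 69820 was at -0.20 and the others at 0.58 to 0.79. Col8a1 and Col8a2 also had probes of both signs, and Col4a3 and Col4a4 have 1 probe each. The pairs share libraries, depth and the number of genes with a count, to which Col4a3 and Col4a4 related with opposite sign; the part of that number in the pair's correlation was not tested.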

How the data were processed

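Gene counts of 140 lung and 30 heart libraries were used as deposited: whole-number read counts per probe, made by the authors and not normalized. Bowtie and DESeq2 appear in the submitters' processing notes, without versions or roles, and for the genome build and strand setting nothing is given in the sources used here. Per the labels' protocols, both the TempO-Seq probe assay and the QuantSeq 3' kit were used, so it is unclear which chemistry made the libraries. Every column was matched to a sample by its label, and 0 columns were left unmapped. Replicates of a group were separate libraries, with a different mouse number in each.

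Counts were summed per symbol and tested with edgeR 4.0.16 (R 4.3.3, limma 3.58.1; TMM scaling, edgeR's default filter on low counts by group, robust quasi-likelihood F test), with p-values adjusted over all genes tested. Lungs were fitted together with group and plate as terms (14458 genes), hearts by group (11179 genes), and the tissue comparison over the 60 libraries of the 5 groups that gave both (13746 genes). Col15a1 did not pass the filter in lung, and Col4a4, Col4a6, Col8a2, Col11a2, Col16a1, Col20a1 and Col23a1 did not in heart. A chain kept by the filter through the group where it is high could only differ in that direction. A standard error is the size of a log2 change over the root of its F statistic. The genes named are the 28 members and the genes of lists that were called. The members, classes and lists were chosen with earlier results of these data known. Heart and lung of a mouse share the mouse number in the titles, so the pairing in the tissue comparison comes from the labels, and a fit with the mouse as a block was made as an alternative. Replicate numbers of different groups are different mice.

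Correlations used residuals of log2(CPM + 1) after group and plate, with 2-sided permutation tests of 100000 draws. Alternatives were DESeq2 1.42.0 and its size factors, no filter, each probe on its own, 1 time alone, plate 2 alone, a term for the number of genes with a count, a pseudocount of 0.5, and leaving out single animals or groups of libraries. Python 3.11.15, numpy 2.4.6, pandas 2.3.3 and scipy 1.17.1 were used for the tables. The main edgeR fits of lungs, of hearts and of the tissue comparison were tested on simulated data.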

Additional observations from a re-analysis of the deposited data

Results flagged for a closer look

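In groups of 4 to 10 samples, a sample was flagged where it stood far from the others by Dixon's 95% criterion, which chance meets in about 1 in 20 groups; 56 groups were tested. In lung at 24 h, Col14a1 was 0.995 CPM in LPS lung 4 and 0.223 to 0.328 CPM in the other 3. Col27a1 at 24 h was 4507 CPM in RedOakFlame lung 6 and 23.4 to 209.6 CPM in the other 5, and 316 CPM in saline lung 2 and 29.9 to 122.2 CPM in the other 5. In RedOakFlame hearts, heart 2 stood apart for Col14a1 at 32.8 CPM (9.87 to 17.5 CPM in the other 5) and for Col18a1 at 59.6 CPM (15.3 to 26.1 CPM in the other 5). That heart also had a smooth muscle and pericyte marker sum of 1166 CPM.

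The effect of the burning phase differed between red oak and peat in the heart for Col1a1 (2.14), Col4a1 (1.17), Col4a2 (1.12), Col5a1 (1.89), Col5a2 (1.40), Col6a1 (1.58) and Col6a2 (1.61), all as log2 differences called in the test of that difference. That test was added after the data were seen. Calls of Col1a1, Col4a1, Col4a2 and Col5a2 in it were lost when some single hearts were left out. They were also lost with the number of genes with a count as a term. The LPS effect differed between 24 h and 4 h in lung for Col14a1 (-3.52).

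Col11a1, a fibrillar chain of cartilage under the minimum for a member, had up to 42 counts in a heart. It had 42 in RedOakFlame heart 2, 38 in PeatFlame heart 2, 25 in PeatSmolder heart 3, 27 in RedOakSmolder heart 4 and 26 in PeatSmolder heart 4, and 0 counts in all 6 saline hearts. Cartilage markers summed to 36.004, 36.1, 16.5, 17.8 and 29.8 CPM in those 5 hearts and to 0.482 to 5.74 CPM in saline hearts.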

How the results depend on the processing

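Over the alternatives, 1665 of 1927 values of named chains kept their side of the threshold, 250 lost the call, 9 gained it and 3 of called chains reversed. A change of sign in a chain without a call was not counted as a reversal. Such changes occurred, as for Col6a1 after LPS at 4 h (-1.16 to 0.54) and Col1a1 after LPS at 24 h (-0.38 to 0.58). The reversals of called chains were Col27a1 in RedOakFlame lungs at 24 h (-0.68 without the libraries of few genes and -0.40 with the number of genes with a count as a term) and Col14a1 in RedOakFlame hearts (-0.0135 with that term). With that term 0 chains were called in RedOakFlame hearts, 0 in PeatSmolder hearts and 0 for the mean of 4 smokes, 2 between RedOakFlame and RedOakSmolder hearts and 3 for the phase difference. The cause was not tested. The mean of 4 smokes gave 11 chains with DESeq2, 2 with no filter, 3 with each probe and 1 without the hearts of high smooth muscle markers. For LPS at 4 h, fitting 1 time alone gave 7 chains. The share of all genes called is not set beside the counts of these alternatives. For LPS at 24 h there were 8 with DESeq2, 3 with 1 time alone, 9 without the libraries of few genes and 9 with the number of genes as a term. The LPS effect between times gave 0 with DESeq2 size factors or with no filter. Flaming minus smoldering in lung at 4 h gave 1 with each probe, 1 with 1 time alone and 1 with the number of genes as a term. Single smokes in lung at 24 h gave 2 pairs with DESeq2, 2 without the libraries of few genes, and 0 with no filter, each probe, 1 time alone or the number of genes as a term.

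Leaving out 1 library at a time gave 2 to 3 chains for LPS at 4 h, 3 to 5 for LPS at 24 h, 8 to 17 for RedOakFlame hearts, 3 to 9 for PeatSmolder hearts, 0 to 9 for the mean of 4 smokes, 3 to 8 for the phase difference and 19 to 21 for heart minus lung. Shares of all genes called in these fits are not set beside the counts. Pairing heart and lung by a replicate block on the mouse gave 21 chains, 3 higher and 18 lower, and changed no call. In lung, r of Col1a1 with Col1a2 was 0.324 without the 2 libraries farthest from the median and -0.0578 within plate 2, r of Col6a1 with Col6a3 was 0.0655 within plate 1, and r of Col8a1 with Col8a2 was -0.1725 without those 2 libraries and -0.2158 within plate 1. Chains of few counts, such as Col12a1 in heart, leave log2 changes with wide errors, and chains near the minimum could not be resolved at this depth.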
